A study of Mus musculus with 2 samples.

Results

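De novo lipogenesis is the pathway by which the liver turns surplus carbohydrate into fatty acids, and 10 genes of it were examined here in fibrotic mouse liver: Acly, Acss2, Acaca, Acacb, Fasn, Scd1, Me1, Srebf1, Mlxipl and Pnpla3. Their 18 probes were found by the RefSeq transcript accession that the scanner files give for each spot, out of 26762 probes matched to a gene in this way and 55681 non-control probes in all. The genes were 10 of the 20284 on the array. The first group is total liver RNA of male C57BL/6 mice with liver fibrosis that received recombinant TSG-6 protein intravenously, and the second is the same from fibrotic mice that received PBS as the control. Tissue was taken 2 weeks after the injection, and equal amounts of RNA from 3 mice were combined for each group before labelling, so that each group is 1 pool on 1 one-colour Agilent array. TSG-6 is a secreted protein that binds hyaluronan. How fibrosis was induced, the age of the mice and the protein dose are not given in the sources used here, and no liver without fibrosis was analysed.

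In this pathway ATP citrate lyase (Acly) releases acetyl-CoA from citrate in the cytosol, and Acss2 makes it from acetate. Acetyl-CoA carboxylase, encoded by Acaca in the cytosol and by Acacb at the mitochondrial outer membrane, turns acetyl-CoA into malonyl-CoA. Fatty acid synthase (Fasn) builds palmitate from malonyl-CoA with NADPH that malic enzyme (Me1) helps to supply, and stearoyl-CoA desaturase (Scd1) adds a double bond. The transcription factors SREBP1 (Srebf1), which responds to insulin, and ChREBP (Mlxipl), which responds to glucose, switch these genes on in the fed liver. Pnpla3 encodes a lipid droplet protein whose transcription both factors are known to raise. Malonyl-CoA made by Acacb is known as an inhibitor of the fatty acid import enzyme CPT1, and so as a brake on fatty acid oxidation.

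The genes did not lie on one side. In the TSG-6 pool Acacb was at least 2-fold higher by both its probes. Acss2 was at least 2-fold higher and Pnpla3 at least 2-fold lower by 1 of 2 probes only, that brighter on the mean of both pools. Srebf1 was lower by less than 2-fold, and Mlxipl, Acly, Acaca and Me1 were higher by less than 2-fold. Of these, Acaca and Me1 were just below 0 under spike-in scaling and Acly just below 0 with flagged spots kept. Of 8 genes with a usable value in both pools, 2 passed 2-fold on the higher side, where 2.94% of all 15148 measured genes did. On the lower side 1 of the 8 passed 2-fold, where 4.28% of all did. At a limit of 1.5-fold the counts were 3 higher and 2 lower, against 10.5% and 10.3% of all genes. The 8 genes had a median log2 difference of 0.39, while that of all measured genes was 0.076. With 1 array per group no test, SD or p-value could be had, and every difference is one between these pools, in which array and treatment cannot be told apart. Differences are log2 signals relative to each array's 75th percentile, TSG-6 minus PBS. That percentile was lower on the TSG-6 array, so spots of equal signal on both arrays have a difference of 0.35.

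The 250 bases before the annotated start are printed for Acss2, Acacb and Pnpla3, the 3 genes past 2-fold, so that the higher and the lower genes can be compared in sequence. They are from RefSeq, build GRCm38.p6, in the direction of transcription. Capitals mark matches, on either strand, to CCAAT (the box bound by NF-Y) and GGGCGG (bound by Sp1). The Acss2 window is chr2:155517793-155518042 on the plus strand, that of Acacb is chr5:114165268-114165517 on the plus strand and lies inside the annotated span of the gene, and that of Pnpla3 is chr15:84167566-84167815 on the plus strand.
Acss2: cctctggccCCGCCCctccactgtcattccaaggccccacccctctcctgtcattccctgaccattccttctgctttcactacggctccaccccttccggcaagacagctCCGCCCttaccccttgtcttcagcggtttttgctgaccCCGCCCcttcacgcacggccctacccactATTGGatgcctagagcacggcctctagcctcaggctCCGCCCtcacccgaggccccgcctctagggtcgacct
Acacb: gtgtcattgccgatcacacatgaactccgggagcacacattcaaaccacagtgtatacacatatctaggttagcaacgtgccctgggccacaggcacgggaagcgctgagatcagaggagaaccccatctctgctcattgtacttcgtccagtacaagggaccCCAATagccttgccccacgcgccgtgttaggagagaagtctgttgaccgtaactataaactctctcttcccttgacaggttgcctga
Pnpla3: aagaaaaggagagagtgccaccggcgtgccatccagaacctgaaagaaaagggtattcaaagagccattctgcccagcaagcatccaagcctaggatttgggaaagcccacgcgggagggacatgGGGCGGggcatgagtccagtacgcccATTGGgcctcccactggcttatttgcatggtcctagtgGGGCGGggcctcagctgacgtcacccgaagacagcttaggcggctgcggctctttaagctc

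The higher gene Acss2 had 4 GGGCGG matches and 1 CCAAT match in its window, the higher gene Acacb 1 CCAAT match, and the lower gene Pnpla3 2 GGGCGG matches and 1 CCAAT match. All 3 CCAAT matches lay between 99 and 69 bases before the start. The table held 13 windows for 9 of the 10 genes. CCAAT was present in 8 of the 13 windows, belonging to 7 genes, and in 33.8% of all 32851 windows of the table. GGGCGG was present in 7 of the 13 and in 32.7% of all. The E-box CACGTG, to which ChREBP and SREBP1 can bind, was found in 1 of the 13, a window of Mlxipl, and in 6.02% of all. The sterol response element core TCACNCCAC was found in 1 of the 13, the other window of Mlxipl, and in 1.05% of all. All 4 motifs were searched on both strands. No 2 of the matches in the 3 printed windows overlap. Such letter matches describe the windows and do not locate a bound factor.

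Among the enzymes that supply cytosolic acetyl-CoA, Acss2 stood apart. Its probe A_55_P1988795 had a processed signal of 29477 in the TSG-6 pool and 7785 in the PBS pool, 4.83-fold higher after scaling (log2 difference 2.27). The second probe, A_55_P1988789, had 16450 in the TSG-6 pool and 12578 in the PBS pool, 1.67-fold higher (0.74). Both probes were therefore brighter in the TSG-6 pool, but they gave unlike sizes. The files assign both to 1 transcript, so they do not say which better represents the gene. A gap of 1.53 or more between the highest and lowest probe was seen in 1.73% of the 3468 genes with at least 2 measured probes, whose median gap was 0.25. Probe A_55_P1988795, brighter on the mean of both pools but dimmer in the PBS pool, ranked the gene 45 from the top of 15148. The choice of probe thus leaned on the TSG-6 signal that the difference also holds.

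Acly, the citrate route to the same product, gave small differences. Its probe for 1 transcript, A_55_P2082914, had 929.8 in the TSG-6 pool and 847.8 in the PBS pool, 1.40-fold higher (0.48). Its probe for another transcript, A_55_P2025954, had 4146 in the TSG-6 pool and 5379 in the PBS pool, a log2 difference of -0.024, but the spot carried the software's flag for uneven pixels on the TSG-6 array and was left out of the main value. The sign of the Acly difference thus depended on which spot was read. The mitochondrial citrate carrier Slc25a1, which was picked with its value known, had a difference of 0.026.

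The 2 acetyl-CoA carboxylases differed from each other. Acacb had 24429 in the TSG-6 pool and 7639 in the PBS pool with its brighter probe, 4.08-fold higher (2.03), and 1186 in the TSG-6 pool and 318.2 in the PBS pool with its dimmer one, 4.75-fold higher (2.25). The 2 probes thus gave like values, 0.22 apart, and placed the gene 60 from the top. Acaca had 21821 in the TSG-6 pool and 22823 in the PBS pool with its brightest probe, 1.22-fold higher after scaling (0.29). Its dimmer probe A_55_P2084703 had 288.6 in the TSG-6 pool and 189.0 in the PBS pool, 1.95-fold higher (0.96). Probe A_55_P2121392 of Acaca was near the detection limit, at 24.8 in the TSG-6 pool and 24.3 in the PBS pool, and was not well above background in the PBS pool. By the probes that read each gene, the difference of Acacb exceeded that of Acaca by 1.74 on the log2 scale. Hlcs, which attaches the biotin that both carboxylases need and was picked with its value known, was 1.57-fold higher by its brighter probe, and its 2 probes ran from 0.14 to 0.65.

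**Figure D1:**
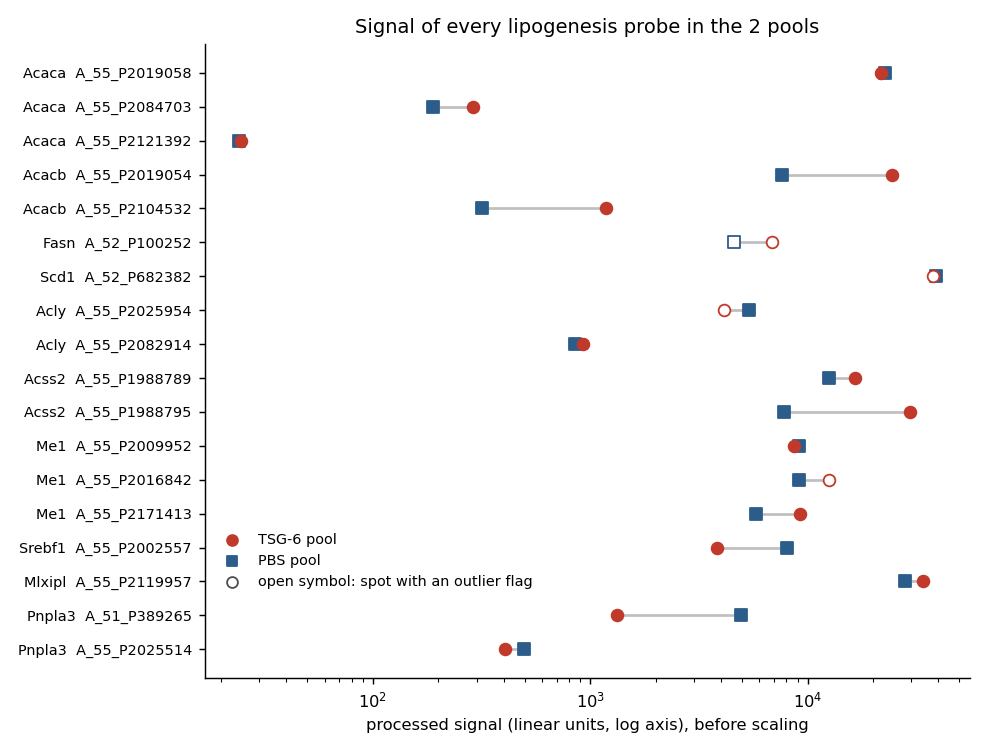
Processed signal (linear units on a log axis, before scaling) of all 18 probes of the 10 genes, with circles for the TSG-6 pool, squares for the PBS pool and open symbols for spots with an outlier flag. Each point is 1 spot. The widest horizontal gaps are those of Acacb (both probes), the second probe of Acss2 and the first of Pnpla3, which runs the other way.

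Fasn and Scd1, the synthase and the desaturase, could be read only from flagged spots. The single Fasn probe had 6852 in the TSG-6 pool and 4577 in the PBS pool, 1.91-fold higher (0.93), with the flag for uneven pixels on both arrays. The single Scd1 probe had 37761 in the TSG-6 pool and 38854 in the PBS pool, 1.24-fold higher (0.31), with that flag on the TSG-6 array. Both values are given as the files hold them and enter no count above. With flagged spots kept, the difference of Fasn ran from 0.57 to 1.22 over the scalings and that of Scd1 from -0.06 to 0.60. With these spots 2 of 10 genes passed 2-fold on the higher side and 1 on the lower, where 2.97% and 4.08% of 16427 genes did. Other stearoyl-CoA desaturases, named here by family after their values were seen, were Scd2 at -0.52, Scd3 at -0.16 and Scd4 at 0.22. The 3 probes of Scd3 ran from -0.16 to 0.97. Similar sequences may make single members of this family uncertain, which was not tested.

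Me1, a cytosolic source of NADPH, was higher at each of its probes after scaling, though its first probe was at -0.10 with spike-in scaling. The brightest unflagged probe, A_55_P2009952, had 8634 in the TSG-6 pool and 9160 in the PBS pool, 1.20-fold higher (0.27). Probe A_55_P2171413 had 9198 in the TSG-6 pool and 5814 in the PBS pool, 2.02-fold higher (1.01). The flagged probe A_55_P2016842 had 12581 in the TSG-6 pool and 9121 in the PBS pool, a difference of 0.81. The files assign the 3 to the same transcript. The raw signal of the first was thus lower in the TSG-6 pool, and that of the others higher. The mitochondrial malic enzymes, named by family after their values were seen, differed by -0.16 (Me2) and 0.70 (Me3).

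The 2 transcription factors lay on opposite sides of 0. Srebf1 had 3817 in the TSG-6 pool and 8078 in the PBS pool with its only probe, 1.66-fold lower (-0.73), and 7.41% of measured genes had a lower difference. Mlxipl had 34049 in the TSG-6 pool and 28072 in the PBS pool with its only probe, 1.55-fold higher (0.63), above 91.1% of measured genes. Srebf1 gives rise to the transcripts of SREBP1a and SREBP1c from different starts, and the files do not say which of them the probe detects. The gene that encodes SREBP2, Srebf2, picked with its value known, was 1.47-fold higher, on the opposite side from Srebf1. Mlx, the dimer partner of ChREBP, was 1.41-fold lower, likewise picked.

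Pnpla3 was the lowest of the 10. Its probe A_51_P389265 had 1334 in the TSG-6 pool and 4935 in the PBS pool, 2.90-fold lower (-1.54), ranking 246 from the bottom. Its dimmer probe A_55_P2025514 had 403.3 in the TSG-6 pool and 498.2 in the PBS pool, a difference of 0.046. The lower level was thus seen at 1 of the 2 probes, and the mean over both was -0.75. A probe gap of 1.58 or more occurred in 1.41% of genes with several measured probes. Pnpla5, a relative on the list of triglyceride genes, was 2.94-fold higher, with 865.9 in the TSG-6 pool and 376.1 in the PBS pool. The lipase gene Pnpla2, named by family afterwards, differed by 0.38.

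**Figure D2:**
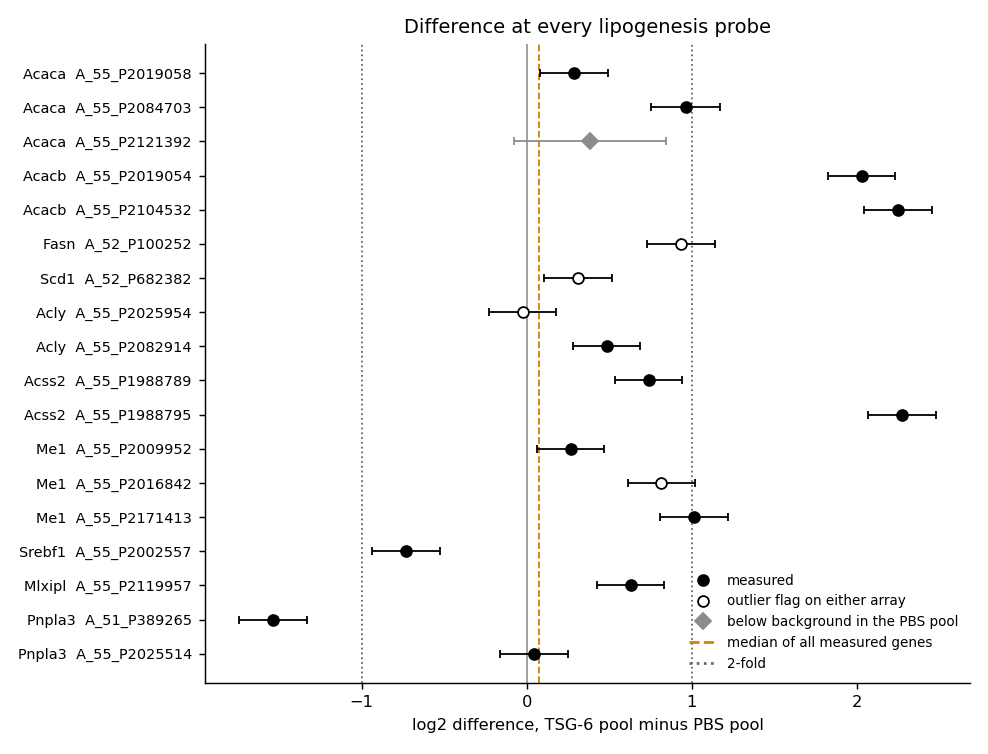
Log2 difference (TSG-6 pool minus PBS pool) at each of the 18 probes. Bars are the extraction software's own error estimate carried to the difference, close to 0.20 for all but the dimmest Acaca probe (0.46), and they hold no spread between mice; open points had an outlier flag. Acacb and 1 probe of Acss2 lie beyond 2, 1 probe of Pnpla3 lies below -1, and Srebf1 is the only other unflagged probe below 0.

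The sizes above can be set against spot noise and against genes of like brightness. Across 327 probes with several spots, log2 differences of spots of the same probe had a pooled SD of 0.13, which leaves out the spread between mice. In the main setting the differences of all 8 measured lipogenesis genes were larger in size than this, the smallest being 0.27 for Me1. The probe gaps of Acss2, Pnpla3, Me1, Acaca and Acacb were larger as well. With spike-in scaling Acaca (-0.082), Me1 (-0.10) and Acly (0.12) were within it. Among 6962 genes with a mean level at or above the 75th percentile, where the SD of differences was 0.43, 1.61% passed 2-fold on the higher side and 1.38% on the lower. Of the 6 lipogenesis genes in that range, Acacb and Acss2 passed it on the higher side and 0 on the lower, and Pnpla3 lay just under the range. Differences also varied with brightness. Among genes within 0.5 log2 units of the mean level of each, a description chosen after the data were seen, the median difference was 0.21 around Mlxipl, 0.14 around Acaca and -0.058 around Acly. Within those windows 95.2% of genes had a lower difference than Mlxipl, and 74.1% than Acaca. Acacb had a larger difference than 99.9% of the 1924 genes in its window and Acss2 a larger one than all 1822 in its own. For Acss2 this holds for probe A_55_P1988795, chosen on the mean of both pools. In the PBS pool that probe was dimmer than the other (7785 against 12578), and the other differed by only 0.74. Lower differences than that of Srebf1 were seen in 4.87% of its window, and than that of Pnpla3 in 1.37%.

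**Figure D3:**
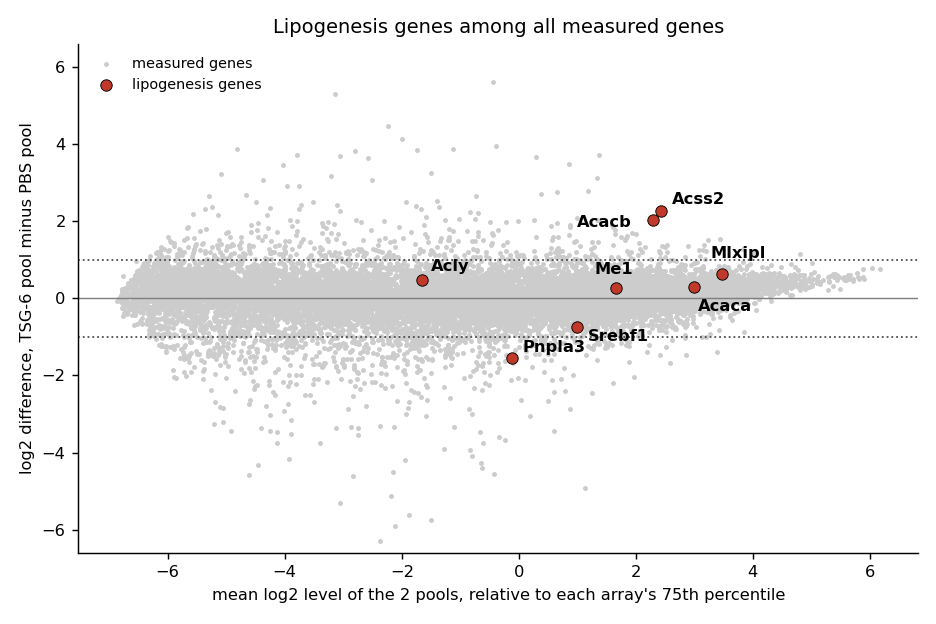
Log2 difference against mean log2 level for all 15148 measured genes (grey) and the 8 measured lipogenesis genes (red); dotted lines mark 2-fold. Acacb and Acss2 lie above the upper 2-fold line, Pnpla3 lies below the lower one, and Srebf1, Acly, Acaca, Me1 and Mlxipl lie between the lines.

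The genes around the pathway were taken from 9 lists and are described by counts past 2-fold and by medians, which carry no test. Of all measured genes 2.94% passed 2-fold on the higher side and 4.28% on the lower, the shares beside which each count stands. In the control of SREBP1 and LXR, 1 of 20 measured genes passed 2-fold on the higher side and 0 on the lower (median 0.19). The higher one was Irs2, an insulin receptor substrate, at 17511 in the TSG-6 pool and 8920 in the PBS pool, a log2 difference of 1.32 that was under 2-fold with spike-in scaling (0.96). Scap and Insig1, genes of SREBP processing that carry the sterol signal and were named afterwards, were within 2-fold. The difference was 0.35 for the escort protein Scap and 0.52 for its retention partner Insig1, while Insig2 was not measured. Nr1h3, which encodes the oxysterol receptor LXR-alpha, differed by 0.12, and 7 measured LXR targets outside lipogenesis had a median of -0.026 with 0 past 2-fold. The largest difference among those was -0.51 for the lipoprotein lipase gene Lpl.

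The AMPK pathway and other brakes on acetyl-CoA carboxylase had 10 measured genes (median 0.14). Of these 1 passed 2-fold on the lower side and 0 on the higher, against 4.28% and 2.94% of all measured genes. It was Trib3, a pseudokinase that is known to promote the breakdown of acetyl-CoA carboxylase in fat tissue, at 3610 in the TSG-6 pool and 13923 in the PBS pool, 3.02-fold lower. Of 11 measured ChREBP partners and targets 1 passed 2-fold on the lower side and 0 on the higher (median 0.35): the hormone gene Fgf21, at 229.2 in the TSG-6 pool and 783.6 in the PBS pool, 2.68-fold lower. On the same list, and named afterwards, the glucose transporter Slc2a2 was 1.86-fold and liver pyruvate kinase (Pklr) 1.52-fold higher. Slc2a2 and Pklr were thus on the same side of 0 as Mlxipl, while Fgf21 was on the other.

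In the supply of carbon and NADPH 2 of 16 measured genes passed 2-fold on the higher side and 0 on the lower (median 0.15). Of all measured genes 2.94% and 4.28% did. With the stricter filter on dim probes 1 of 15 passed on the higher side. The plasma membrane citrate carrier Slc13a5 had 1799 in the TSG-6 pool and 807.6 in the PBS pool, 2.84-fold higher, and its second probe differed by 2.09. Acss3, a mitochondrial relative of Acss2, had 118.8 in the TSG-6 pool and 57.0 in the PBS pool, 2.66-fold higher. It was under 2-fold with normexp background correction, at 0.94, and the stricter filter on dim probes left it out. The remaining member of that family, Acss1, named afterwards, was 1.53-fold lower.

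The list named for cofactors and helpers of the carboxylases and the synthase had no member past 2-fold among 10 measured (median 0.32). It is broader than its name and also holds acyl-CoA binding and mitochondrial fatty acid synthesis genes. The largest difference was 0.78 for Acbd5, which encodes an acyl-CoA binding protein. That value was 0.16 with flagged spots kept and 1.07 with the percentile of unflagged spots. Under each of these settings 1 gene of the list passed 2-fold on the higher side. Thrsp, a gene induced with lipogenesis that was named afterwards, could be read only from a flagged spot, at 44837 in the TSG-6 pool and 27160 in the PBS pool (1.07). In chain elongation, desaturation and triglyceride assembly 1 of 23 measured genes passed 2-fold on the higher side and 2 on the lower (median 0.25). Of all measured genes 2.94% and 4.28% did. With the percentile of unflagged spots 4 of the list passed on the higher side, where 1019 of all 15148 genes did. The elongase Elovl7 had 592.8 in the TSG-6 pool and 9575 in the PBS pool, 12.7-fold lower, and the lipid droplet gene Cidea 613.2 in the TSG-6 pool and 2575 in the PBS pool, 3.29-fold lower; the higher gene was Pnpla5. Elovl6, the elongase that acts on palmitate and was named afterwards, was 1.83-fold higher. Elovl7 and Elovl6 thus lay on opposite sides of 0, and the other elongases of the list are not described here.

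Next to lipogenesis, cholesterol synthesis under SREBP2 had a median of 0.42 over 21 measured genes. On the higher side 1 gene passed 2-fold and on the lower 0, against 2.94% and 4.28% of all measured genes. That gene, Dhcr7, encodes the last enzyme of the pathway and was 2.15-fold higher, but under 2-fold with scaling to the array median and to the spike-in controls (0.74). Of those 21 genes 19 lay above 0, and of the 8 lipogenesis genes 6 did, where 57.5% of all measured genes and 62.1% of the 6962 brighter ones did. Differences ran from -0.32 to 1.11 over the cholesterol genes and from -1.54 to 2.27 over the lipogenesis genes. Fatty acid oxidation had a median of 0.30 over 16 measured genes, with 1 past 2-fold on the higher side and 0 on the lower. It was the pyruvate dehydrogenase kinase gene Pdk4, at 2.21-fold higher (0.78 on the log2 scale with spike-in scaling). When flagged spots were kept, 2 of 20 genes of that list passed on the higher side. With spike-in scaling 7 of the 9 lists had a median that lay below 0 in place of above it, and that of cholesterol synthesis was 0.057. Whether these lists differ from lipogenesis was not tested.

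**Figure D4:**
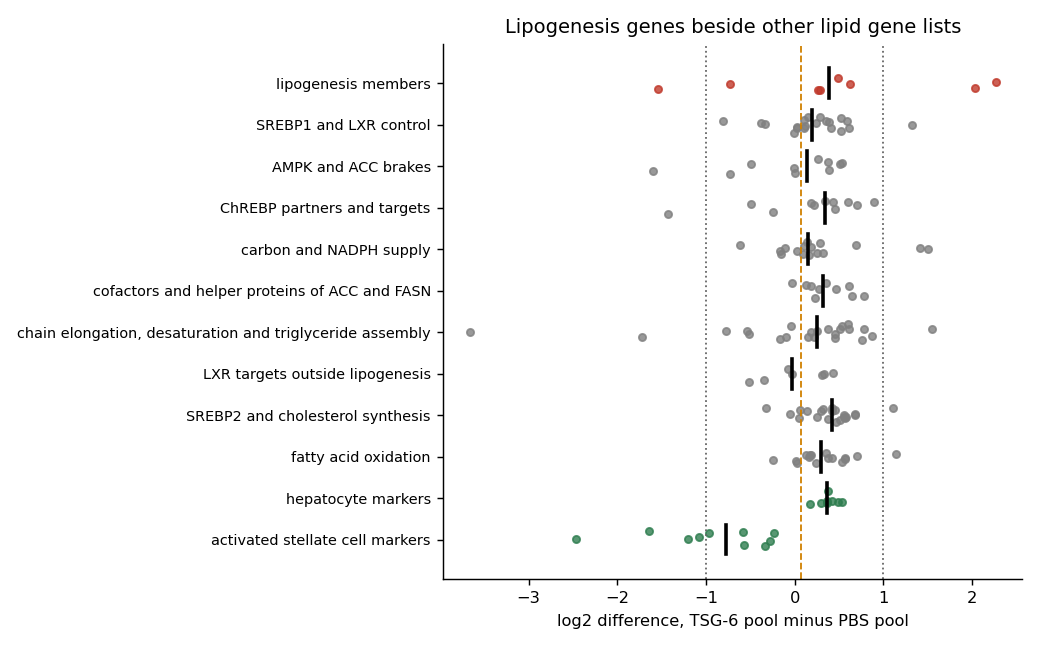
Log2 difference (TSG-6 pool minus PBS pool) of each measured gene by list, with the lipogenesis genes in red, marker genes of hepatocytes and activated stellate cells in green, and the list median as a black bar; the dashed line is the median of all measured genes (0.076) and dotted lines mark 2-fold. The lipogenesis genes spread more widely around a median of 0.39 than the 21 cholesterol synthesis genes do around 0.42.

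Liver identity and the makeup of the pools were read from marker lists. All 8 measured hepatocyte markers, of 12 listed, were higher in the TSG-6 pool by 0.17 to 0.53 (median 0.37, but 0.0018 with spike-in scaling and 0.0043 with quantile normalization). Their summed level was 190.1 in the TSG-6 pool and 144 in the PBS pool in units of the array's 75th percentile. All 10 markers of activated stellate cells, the collagen-making cells of fibrosis, were lower (median -0.78), where 6439 of all 15148 measured genes lay below 0. The summed level of these markers was 38.0 in the TSG-6 pool and 58.8 in the PBS pool. With the percentile of unflagged spots their median was -0.49, and Col3a1 (0.0072) and Postn (0.055) lay just above 0. Lipogenic genes are also active in fat cells: 9 of 11 adipocyte markers were measured, with a median of 0.44 (0.069 with spike-in scaling), 7 of the 9 above 0 and a summed level of 12.6 in the TSG-6 pool and 13.0 in the PBS pool. The bright marker Fabp4 was among the lower ones, at 17792 in the TSG-6 pool and 28305 in the PBS pool, and Plin1 and Lep were not well above background in either pool. Ucp1, which defines brown fat, was likewise not well above background. Medians were 0.38 for brown fat and -0.29 for bile duct markers, each over 3 measured of 6 listed. The brown fat markers ran from -1.72 to 0.86, and their median was 0.014 with spike-in scaling. That of the bile duct markers was -0.0020 with the percentile of unflagged spots. The median was 0.22 for macrophage markers, but -0.15 with spike-in scaling and -0.052 with quantile normalization. Single macrophage markers ran from -1.10 (Cd14) to 1.26 (Timd4). For endothelial markers the median was 0.27, but -0.096 with spike-in scaling. It was -1.01 for the 4 measured exocrine pancreas markers. That median ran from -2.18 with no filter on dim probes to -0.30 with flagged spots kept. Single pancreas markers ran from -2.41 (Ctrb1, with a signal of only 37.5 in the TSG-6 pool) to 1.29 (Cela2a). Of the 4 only Cela2a lay above 0. The part of cell makeup in the lipogenesis differences was not tested. In pooled whole liver, fewer cells of a type and less RNA per cell cannot be told apart.

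**Figure D5:**
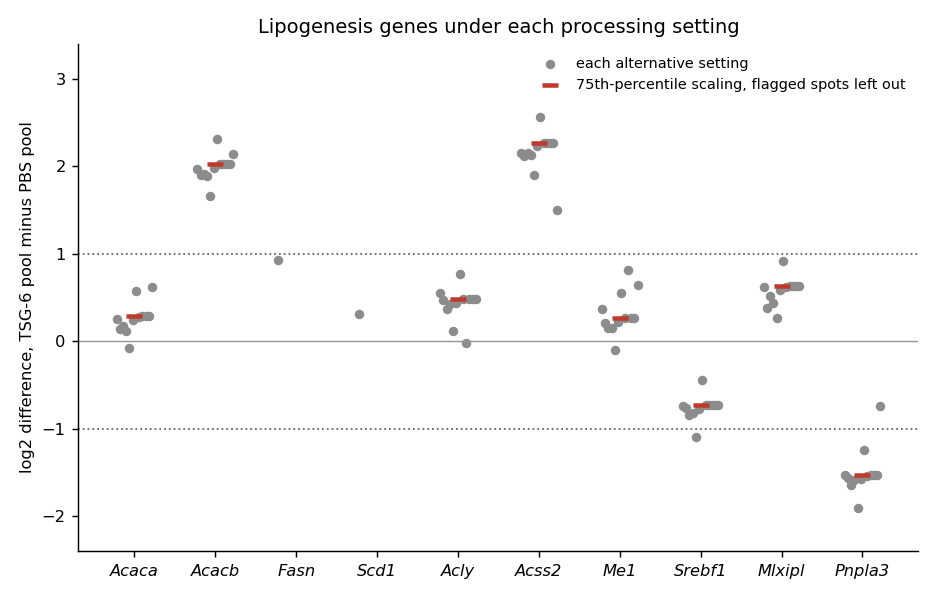
Log2 difference (TSG-6 pool minus PBS pool) of each gene under the 75th-percentile scaling with flagged spots left out (red bar) and under 12 alternative settings (grey points); dotted lines mark 2-fold. Acacb and Acss2 stay above 1 and Srebf1 and Pnpla3 below 0 at every point drawn, while Acaca, Acly and Me1 cross 0; Fasn and Scd1 have a point only where flagged spots were kept.

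Under the alternative settings Acacb ran from 1.66 to 2.32, Mlxipl from 0.26 to 0.92 and Srebf1 from -1.10 to -0.44, so each kept its sign. The lowest value of Acss2, 0.74, and the highest of Pnpla3, 0.046, came from reading the dimmer probe of each, a choice added after the data were seen. Acaca (-0.082) and Me1 (-0.10) were below 0 with spike-in scaling, and Acly (-0.024) was with flagged spots kept. The median of the 8 genes minus that of all genes was 0.31, and between 0.31 and 0.56 over the 12 alternative settings plotted. Scaling to the array median, to the spike-in controls or to another percentile shifts all genes alike, so it could not move this value. The deposited table is nearly such a shift. With flagged spots kept the value was 0.39, over 10 genes.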

How the data were processed

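Total liver RNA of 2 pools was measured, each pool of 3 mice on 1 one-colour array, with 0.2 ug of RNA labelled with Cy3, per the labels. The deposited scanner files hold each spot's processed signal, an intensity that the authors' software had background-subtracted and detrended for position on the array, per the file headers. Agilent Feature Extraction 11.5.1.1 is named there, and the submitters' processing notes name 10.7. Both arrays were on the same slide, per the file headers. The deposited value table gives log2 values that equal the log2 processed signal minus 1 constant per array within 0.01 for 93.8% (TSG-6) and 94.1% (PBS) of spots; its column medians are -3.77 for TSG-6 and -3.90 for PBS, and no centring across arrays was seen. The design build is mm9.

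For the main values the signal was divided by the 75th percentile of the array's 59305 non-control spots (2476 for TSG-6 and 3158 for PBS) and expressed as log2. Spots with a non-uniformity or population outlier flag on either array were left out (4 of the 18 lipogenesis probes; 6.44% of all spots were flagged on the TSG-6 array and 3.40% on the PBS array). Of all spots, 75.5% on the TSG-6 array and 74.0% on the PBS array were well above background, and 0 were saturated; the number of arrays limits the precision. A probe counted as measured with 50% or more of its spots well above background on both arrays. Among a gene's probes, that detected on more arrays and then brighter on average gave its value. Accessions without version were matched to a RefSeq gene table of GRCm38.p6, for names only; 28919 probes had no match.

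With 1 array per group there was no test, and a fixed size of 2-fold was used. The 10 genes and the lists were chosen with earlier results of these data known. The rule for named genes took all 10 genes with every probe, and from each other list up to 4 members past 2-fold or, with none, the largest; others are said to be named afterwards or picked with their value known. Averaging of spots, choice of a probe and the 2-fold count were tested on simulated levels with known changes. Scaling, background correction and the alternative settings were not tested in this way. Settings tried are normexp (offset 50), quantile, median, loess and spike-in scaling, other percentiles, the filters, the flags, the mean over probes and the deposited table, in R 4.3.3 with limma 3.58.1 and Python 3.11.15.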

Additional observations from a re-analysis of the deposited data

How the results depend on the processing

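The count of lipogenesis genes at least 2-fold higher was 2 under all 12 planned processing alternatives and relative to the all-gene median, and 3 at a 1.5-fold limit, where Mlxipl joined. Reading the dimmest measured probe, added after the data were seen, also gave 2, but these were Acacb and Me1. The count at least 2-fold lower, 1 in the main setting, was 2 with spike-in scaling and at 1.5-fold, where Srebf1 joined Pnpla3, and 0 with the mean over probes and with the dimmest probe, where Pnpla3 was at 0.046. The median of the genes, 0.39, was 0.017 with spike-in scaling, 0.67 with the percentile of unflagged spots, 0.63 with the mean over probes and 0.68 with the dimmest probe. The other 9 alternatives moved it by less than the 0.13 SD of replicate spots. Scaling also moved the median of all genes, 0.076, to -0.29 with the spike-in controls and to 0.37 with unflagged spots. Of genes past 2-fold on the whole array, 59.3% were lower, against 88.0% with spike-in scaling, 71.7% with loess, 70.5% with median scaling and 27.0% with unflagged spots. Counts past 2-fold were 446 higher and 649 lower, 190 and 1396 with spike-in scaling, 1019 and 376 with unflagged spots, 289 and 400 with normexp, and 907 higher with no filter on dim probes. No paired analysis was possible because each group has 1 array. Signals near the detection limit, as at the dimmest Acaca probe, give no usable difference.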
